A study of Mus musculus with 8 samples.

Results

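The 10 genes described here encode chromatin regulators, some of which are often mutated in myeloid leukemia. They are the DNA methyltransferases Dnmt1, Dnmt3a and Dnmt3b and the methylcytosine dioxygenases Tet1, Tet2 and Tet3. The others are the Polycomb-linked proteins Asxl1, Asxl2 and Ezh2 and the histone demethylase Kdm6a. All 10 were picked by symbol, by a rule that uses no measured value, though earlier results of these data were known. They were all found among the 23997 genes of the expression table. The 8 RNA-seq libraries come from leukemic bone marrow of C57BL/6 mice, in 3 groups. Marrow of mice given 5-fluorouracil was cultured with IL3, IL6 and SCF, transduced, and transplanted into lethally irradiated recipients, from which RNA was taken once they had died of leukemia. The 3 groups carried AML1-ETO + Meis2 (AE+Meis2, n = 3, median latency 171 days), AML1-ETO9a + Meis2 (AE9a+Meis2, n = 3, 102 days) or AML1-ETO9a alone (AE9a, n = 2, 138 days). AML1-ETO is the fusion of RUNX1 with the corepressor RUNX1T1, AML1-ETO9a is a shorter splice form of it, and Meis2 is a TALE-class homeodomain factor. The stated purpose was to look for likeness and difference among these leukemias. There was no untransduced marrow, so every comparison is between leukemias, and cells of the host and of other lineages are part of each library. The age of the mice and the vector do not appear in the labels, nor is it stated which donor or transduction gave each leukemia. P-values therefore reflect only how far these libraries vary, which can be technical in part.

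DNA methylation marks cytosines in CpG pairs. Dnmt1 copies the pattern onto the new strand after replication with the help of Uhrf1, Dnmt3a and Dnmt3b set new marks, and TET enzymes oxidize methylcytosine toward its removal. Ezh2 is the catalytic subunit of Polycomb repressive complex 2 (PRC2), which methylates histone H3 at lysine 27 and silences genes, and Kdm6a removes that mark as part of the COMPASS complexes that act at enhancers. Asxl1 and Asxl2 are cofactors of the deubiquitinase Bap1, which opposes the histone mark set by Polycomb repressive complex 1 (PRC1). In blood stem cells, loss of Dnmt3a or Tet2 favors self-renewal, and both genes are among those mutated earliest in human myeloid leukemia.

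Levels are in FPKM (fragments corrected for transcript length and library size), so genes can be set side by side within a library. Library values follow the replicate numbers. Several facts on the libraries bear on what follows. Meis2 measured 604 to 1277 FPKM in AE9a+Meis2 libraries, but only 13.1, 38.2 and 81.5 in AE+Meis2 ones, beside 6.99 and 13.2 in AE9a. Runx1t1, which encodes ETO, reached 223 and 218 FPKM in 2 AE+Meis2 libraries. The library labelled AE+Meis2 replicate 1 had 21.6, as low as the AE9a-bearing ones (10.3 to 26.8), so its label does not match either transgene. Among 1543 genes that marrow should not use, such as odorant receptors, AE9a+Meis2 replicate 3 had values for 84.1% and AE9a replicate 1 for 72.1%, whereas no other library exceeded 6.61%. Marrow lineages were present in all libraries: 8 erythroid markers summed to 175 to 1548 FPKM and 8 neutrophil markers to 1801 to 190646 FPKM, while 9 T and NK cell markers summed to 10.9 to 64.8 FPKM.

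None of the tested regulators passed in any of the 3 comparisons, and for all of them but Kdm6a most of the variation lay between libraries of the same group. Expressed genes (at least 1 FPKM in at least 2 libraries, 12565 in all) were tested with limma on log2(FPKM + 1), with Benjamini-Hochberg adjustment over all of them at a threshold of 0.05. The 9 regulators other than Tet1 were tested, and Tet1 was too low. In AE9a+Meis2 against AE9a, 0 of 9 were called by limma, where 0.0478% of all tested genes were, and the lowest adjusted p of a regulator was 1. Between AE+Meis2 and AE9a+Meis2, 0 of 9 were called against 0.0398% of all genes (lowest adjusted p = 0.78). Between AE+Meis2 and AE9a, 0 of 9 were called against 0.0318% (lowest adjusted p = 0.85). At an unadjusted p under 0.05 limma called 0 of 9 in each comparison, against 3.06%, 7.15% and 5.98% of all tested genes. The median log2 difference of the 9 was -0.10, 0.20 and 0.07 in that order of comparisons, beside medians of -0.0011, 0.04 and 0.06 over all tested genes.

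**Figure D1:**
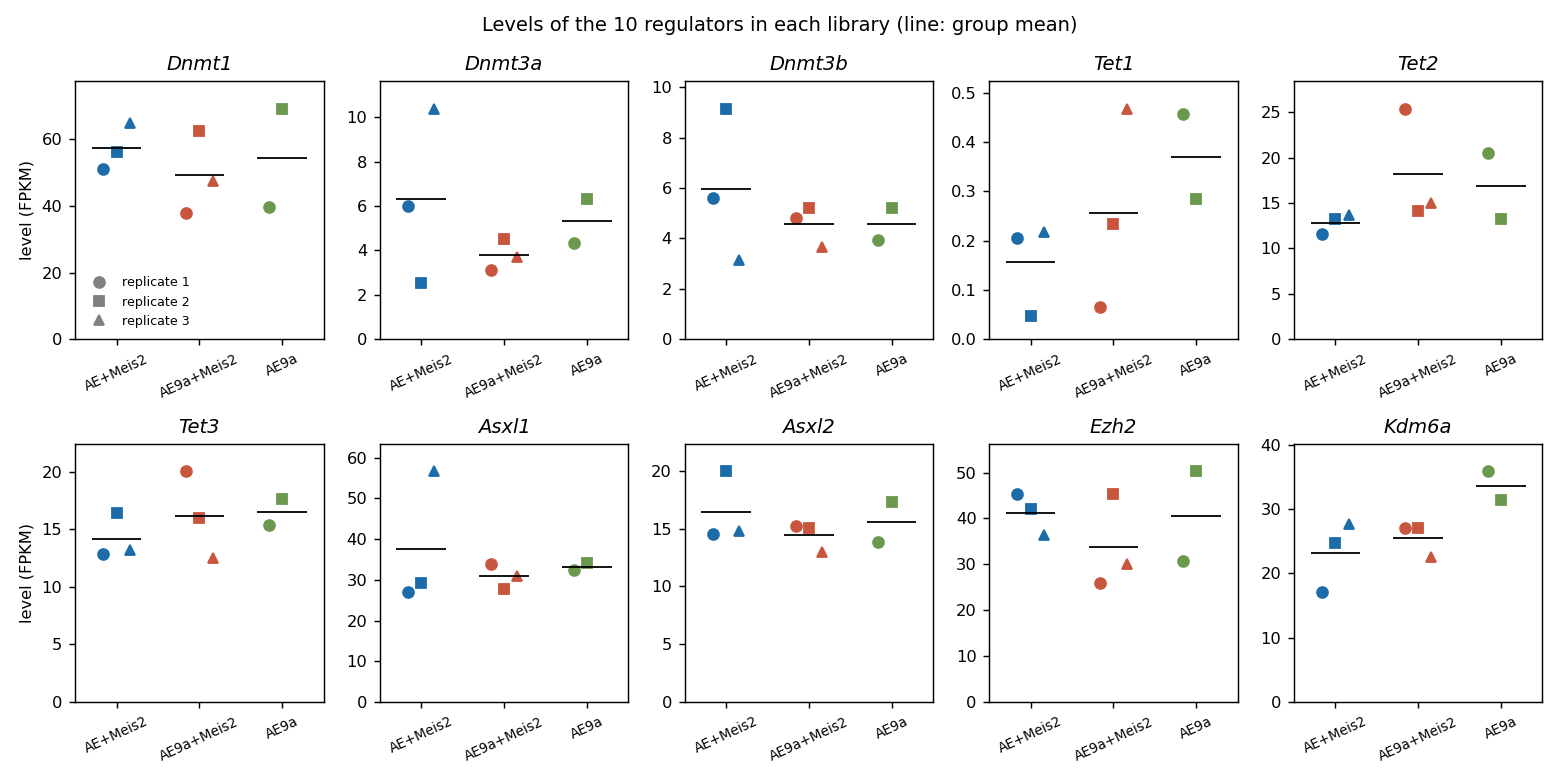
Level in FPKM (vertical axis, linear from 0) of each of the 10 regulators in the 3 AE+Meis2, 3 AE9a+Meis2 and 2 AE9a libraries; symbols mark the replicate number and lines the group means. Libraries of different groups overlap in nearly every panel; Kdm6a in AE9a (35.9 and 31.4 FPKM) lies above all other libraries.

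Missing the threshold does not show that levels were equal, and the intervals give what these libraries allow. The 95% interval was narrowest for Asxl2, from -0.31 to 0.63 on the log2(FPKM + 1) scale in AE+Meis2 against AE9a+Meis2. It was widest for Dnmt3a, from -1.51 to 0.71 in AE9a+Meis2 against AE9a. The share of a gene's sum of squares that lay between groups had a median of 23.8% over all tested genes. It was 54.4% for Kdm6a and 33.1% for Tet2, and between 7.94% (Asxl1) and 20.7% (Ezh2) for the other 7 tested regulators. The residual standard deviation of Asxl2 (0.20) and Tet3 (0.24) was smaller than that of most tested genes (median 0.38), and that of Dnmt3a (0.57) was larger than that of 71.8% of them. Libraries of 2 groups failed to overlap for 1 of 9 regulators in each comparison (11.1%), against 23.8%, 13.5% and 18.6% of all tested genes. That count depends on the scaling, and the setting without small RNAs also brings the remaining FPKM of each library to the same total. Between AE9a+Meis2 and AE9a it was 4 of 9 under quantile scaling (all genes 26.3%), 2 under median-ratio scaling (26.4%) and 3 without small RNAs (25.2%). Between AE+Meis2 and AE9a it was 2 (17.8%), 3 (18.3%) and 3 (22.6%), and between AE+Meis2 and AE9a+Meis2 it was 1 each time. None of these regulators was called under any of these scalings.

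**Figure D2:**
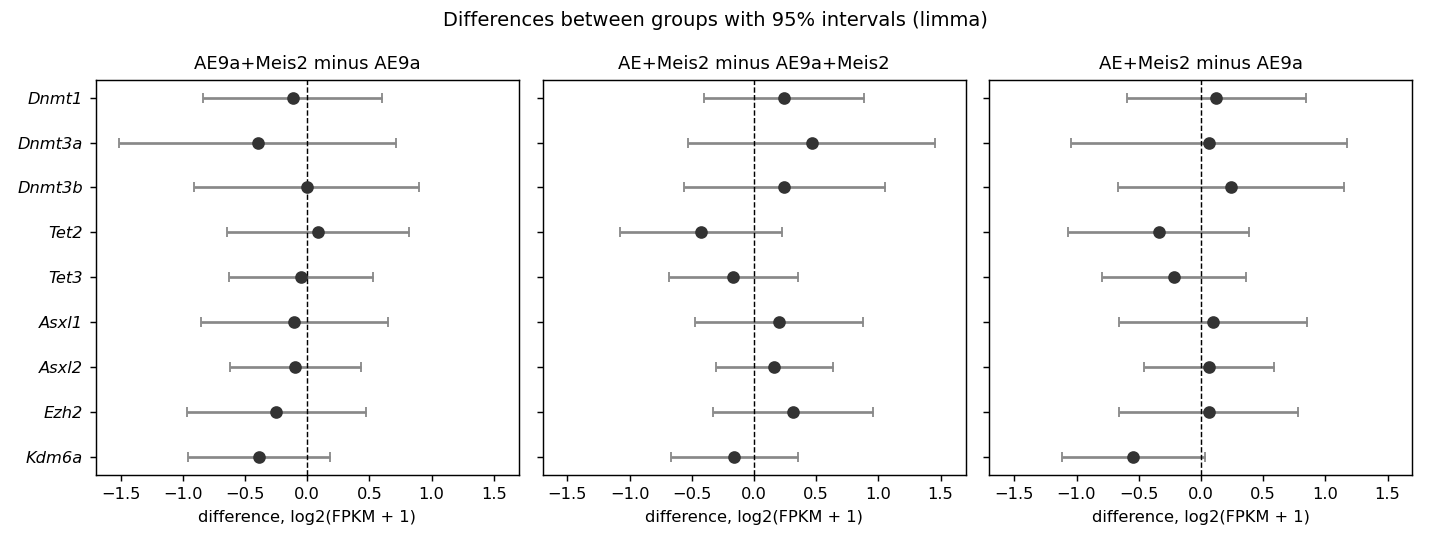
Difference between groups on the log2(FPKM + 1) scale (horizontal axis) for the 9 tested regulators, with the limma estimate as a point and its 95% interval as a bar. All 27 intervals contain 0, and the nearest to excluding it is that of Kdm6a in AE+Meis2 minus AE9a, from -1.12 to 0.03.

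The order of levels was much the same everywhere. Dnmt1 ranked first of the 10 and Tet1 last in each of the 8 libraries. Ezh2, Asxl1 and Kdm6a held ranks 2 to 4, Tet2, Tet3 and Asxl2 ranks 5 to 7, and Dnmt3a and Dnmt3b ranks 8 and 9, in every library. Within each of these sets the order changed from library to library, so neighbours there were not separated beyond their spread. The mean level of Dnmt1 exceeded that of 87.4% of tested genes, and that of Dnmt3a only 28.2%.

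Dnmt1 (chr9:20907206-20959888, GRCm38), the maintenance methyltransferase, measured 51.1, 56.3 and 64.8 FPKM in the AE+Meis2 libraries, 37.9, 62.5 and 47.5 in those of AE9a+Meis2 and 39.6 and 69.2 in those of AE9a. The lowest and the highest of the 8 libraries both belong to groups with AE9a, and the AE+Meis2 libraries fall between them. The log2 difference was -0.12 ± 0.31 (standard error) for AE9a+Meis2 against AE9a, 0.24 ± 0.27 for AE+Meis2 against AE9a+Meis2 and 0.12 ± 0.31 for AE+Meis2 against AE9a. Its partner Uhrf1, which recognizes hemimethylated DNA behind the fork, measured 33.5, 18.6 and 50.5 FPKM in the AE+Meis2 libraries, 22.5, 43.9 and 37.9 in those of AE9a+Meis2 and 26.0 and 48.9 in those of AE9a. The ratio of Dnmt1 to Uhrf1, which no scaling between libraries can change, was 3.03 in AE+Meis2 replicate 2 and between 1.25 and 1.68 in the other 7 libraries. AE+Meis2 replicate 2 was thus the 1 library in which Uhrf1 was low while Dnmt1 was not.

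Ezh2 (chr6:47530274-47595270), the H3K27 methyltransferase, measured 45.4, 42.0 and 36.4 FPKM in the AE+Meis2 libraries, 26.0, 45.2 and 30.2 in those of AE9a+Meis2 and 30.7 and 50.3 in those of AE9a. Its lowest and highest libraries were AE9a+Meis2 replicate 1 and AE9a replicate 2, as for Dnmt1. The log2 difference was -0.25 ± 0.31, 0.31 ± 0.27 and 0.06 ± 0.31 in the order of comparisons above. Dnmt1 and Ezh2 are both known to rise in dividing cells. A proliferation score was therefore taken as the mean log2(FPKM + 1) of 18 replication and mitosis genes. It was lowest in AE9a replicate 1 (5.13), AE9a+Meis2 replicate 1 (5.15) and AE+Meis2 replicate 2 (5.23). It was highest in AE9a+Meis2 replicate 2 (5.82), AE+Meis2 replicate 3 (5.82) and AE9a replicate 2 (5.84), so each group held libraries at both ends.

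Over the 8 libraries the level of Dnmt1 had a Pearson r of 0.87 (exact permutation p = 0.010) and a Spearman rho of 0.90 (p = 0.0046) with that score. Adjusted over the 18 p-values of 9 such relations, by Benjamini-Hochberg, they were 0.092 and 0.082 and did not pass. Without AE9a replicates 1 and 2, the libraries farthest from the median score, r was 0.78. For Ezh2 r was 0.73 (exact permutation p = 0.052, adjusted p = 0.16) and rho 0.69 (p = 0.069, adjusted p = 0.18), with r = 0.60 without those 2 libraries. Dnmt3a had r = 0.76 (exact permutation p = 0.028, adjusted p = 0.13) and rho = 0.79 (p = 0.028, adjusted p = 0.13), with r = 0.82 without those 2 libraries. Tet2 went the other way, with r = -0.68 (exact permutation p = 0.053, adjusted p = 0.16) and rho = -0.64 (p = 0.096, adjusted p = 0.22), and with r = -0.58 without those 2. The other 5 tested regulators had r between -0.26 and 0.28, with adjusted exact permutation p of 0.96 to 1. Without AE9a+Meis2 replicate 3 and AE9a replicate 1, the libraries with values in silent genes, r was 0.81 for Dnmt1, 0.65 for Ezh2, 0.81 for Dnmt3a and -0.62 for Tet2 (n = 6). The score and the genes share their library's depth and scaling, and the scores leave a gap between 5.35 and 5.63 with 4 libraries on each side. The ratio of Dnmt1 to Mki67, a proliferation antigen, is free of that scaling. It lay between 0.627 and 0.865, a 1.38-fold range, while the ratio of Ezh2 to Mki67 had a 1.56-fold range and Dnmt1 itself ranged 1.83-fold. The Dnmt1 ratio was lower without overlap in AE+Meis2 than in AE9a (log2 -0.29, exact permutation p = 0.1, the smallest possible). The Ezh2 ratio was lower without overlap in AE9a+Meis2 than in AE9a (log2 -0.28, exact permutation p = 0.1). In AE+Meis2 it was too (log2 -0.35, exact permutation p = 0.2). Adjusted over 39 tests of ratios and sums, these exact permutation p were 0.56 to 0.65. In the other comparisons of both ratios the groups overlapped. In bulk marrow, fewer dividing cells and less RNA per cell cannot be told apart.

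**Figure D3:**
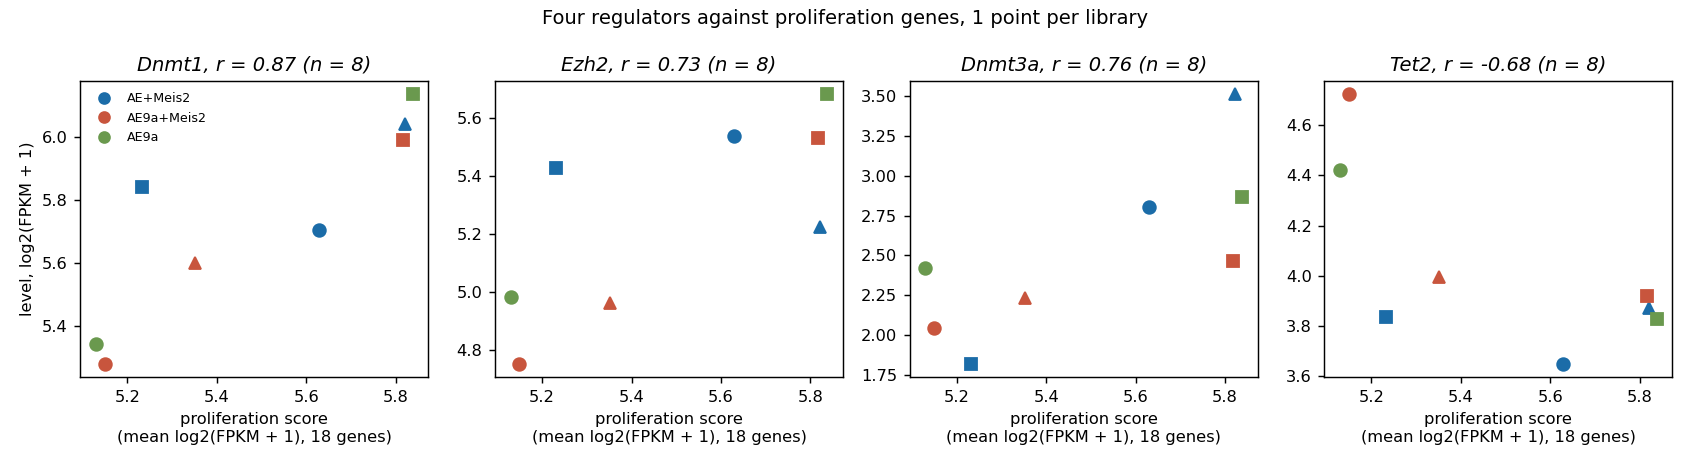
Level of Dnmt1, Ezh2, Dnmt3a and Tet2 (vertical axis, log2(FPKM + 1)) against the mean log2(FPKM + 1) of 18 proliferation genes (horizontal axis), 1 point per library, colored by group and shaped by replicate number. The first 3 genes run upward (r of 0.87, 0.73 and 0.76) and Tet2 downward (r of -0.68), with libraries of every group along the range.

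E2F factors switch on many replication genes through sites close to TTTNGCGC, and the promoters were read for these letters on both strands because Dnmt1, Ezh2 and Uhrf1 are known cell-cycle genes, a choice made after their values were seen. RefSeq windows of 300 bases (250 before to 50 after a start site, GRCm38.p6) were found for all 10 regulators, 14 windows in all. Of the 32851 windows of that table, 1.38% held a match. Among the regulators, Dnmt1 and Ezh2 did, and so did Uhrf1, the partner of Dnmt1. Stretches around the matches, 5′ to 3′ on the gene's strand with the matched letters in capitals, read as follows.
Dnmt1 (chr9:20952754-20952873, minus strand): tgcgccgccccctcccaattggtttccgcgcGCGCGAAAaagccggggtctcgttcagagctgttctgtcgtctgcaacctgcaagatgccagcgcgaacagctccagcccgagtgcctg
Ezh2 (chr6:47595011-47595130, minus strand): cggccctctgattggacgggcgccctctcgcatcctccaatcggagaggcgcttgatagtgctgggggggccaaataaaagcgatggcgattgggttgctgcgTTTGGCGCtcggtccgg
Uhrf1 (chr17:56304078-56304197, plus strand): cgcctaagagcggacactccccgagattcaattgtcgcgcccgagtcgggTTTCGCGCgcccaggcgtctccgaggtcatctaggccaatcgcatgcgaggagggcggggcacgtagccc
The Dnmt1 match begins 219 bases before the start site of this window, which lies inside the annotated gene, and a further match begins 34 bases after that site. The Ezh2 match begins 4 bases after the start and the Uhrf1 match 185 bases before the start. Dnmt1 and Uhrf1 have other start sites whose windows hold no match, and the FPKM do not say which start was used. A match describes the letters only. The windows also differ in CpG content, the substrate of these enzymes: that of Tet2 holds 57 CpG pairs, more than 99.8% of all windows, and that of Tet1 holds 17, against a median of 7.

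The de novo enzymes Dnmt3a (chr12:3801559-3914443) and Dnmt3b (chr2:153649411-153687730) were low and ran in opposite order within AE+Meis2. Dnmt3a measured 5.99, 2.53 and 10.4 FPKM in the AE+Meis2 libraries, 3.12, 4.51 and 3.70 in those of AE9a+Meis2 and 4.35 and 6.31 in those of AE9a. The lowest and the highest of the 8 libraries are both AE+Meis2. Dnmt3b measured 5.60, 9.14 and 3.16 FPKM in the AE+Meis2 libraries, 4.80, 5.22 and 3.64 in those of AE9a+Meis2 and 3.92 and 5.22 in those of AE9a. Again AE+Meis2 holds both extremes, with replicate 2 highest and replicate 3 lowest. The ratio of Dnmt3a to Dnmt3b was therefore 1.07, 0.277 and 3.29 in AE+Meis2, an 11.9-fold range, and between 0.649 and 1.21 in the other 5 libraries. Their summed level was steadier, 11.6, 11.7 and 13.5 FPKM in the AE+Meis2 libraries, 7.92, 9.73 and 7.34 in those of AE9a+Meis2 and 8.28 and 11.5 in those of AE9a. The AE+Meis2 sums lay above all others, by a log2 of 0.57 over AE9a+Meis2 and 0.33 over AE9a, each with an exact permutation p of 0.1 (two-sided), the smallest that these group sizes allow. Adjusted over the 39 tests of 13 ratios and sums in 3 comparisons, both were 0.56, and the sum was looked at after the values were seen. The nearest libraries, AE+Meis2 replicate 1 and AE9a replicate 2, had sums of 11.60 and 11.52 FPKM. No other scaling was tried for the sum.

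The log2 difference of Dnmt3a was -0.40 ± 0.47 for AE9a+Meis2 against AE9a, 0.47 ± 0.42 for AE+Meis2 against AE9a+Meis2 and 0.07 ± 0.47 for AE+Meis2 against AE9a. That of Dnmt3b was -0.0049 ± 0.39, 0.24 ± 0.35 and 0.24 ± 0.39. Under quantile and median-ratio scaling and without small RNAs, Dnmt3a lay lower without overlap in AE9a+Meis2 than in AE9a (-0.40, -0.42 and -0.54). The AE+Meis2 libraries at both extremes also differed in lineage markers. Replicate 2 had the highest summed level of 6 megakaryocyte markers, 358 FPKM, where AE+Meis2 replicates 1 and 3 had 95.2 and 13.8, AE9a+Meis2 12.2 to 16.98 and AE9a 17.7 and 24.0. None of these 6 was at 0 in all libraries, though Gp1bb was listed at 0 in AE9a replicate 1. The integrin Itga2b, which marks megakaryocytes and progenitors, was at 255 FPKM in AE+Meis2 replicate 2 and at most 53.5 FPKM elsewhere. Pf4 (82.4 FPKM), Gp9 (11.1) and Vwf (7.58) were also highest in that library. Gp1bb was not (0.0747 FPKM, against 0.683 and 0.591 in AE+Meis2 replicates 1 and 3). Ppbp was not either (1.41 FPKM, against 2.44 and 2.13 in AE9a). Replicate 3 had the highest summed level of 8 neutrophil markers, 190646 FPKM, where AE+Meis2 replicates 1 and 2 had 16349 and 1801, AE9a+Meis2 1873 to 38581 and AE9a 5170 and 20856. None of these 8 was at 0 in any library. Other lists had extremes there too. Replicate 2 had the highest sum of stem and progenitor markers (543 FPKM) and the lowest of primary granule markers (293) and stress and dissociation genes (167). Replicate 3 had the highest sums of primary granule markers (5707 FPKM) and stress and dissociation genes (3378). The part of any of these cells, or of stress, in the Dnmt3a and Dnmt3b values was not tested.

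**Figure D4:**
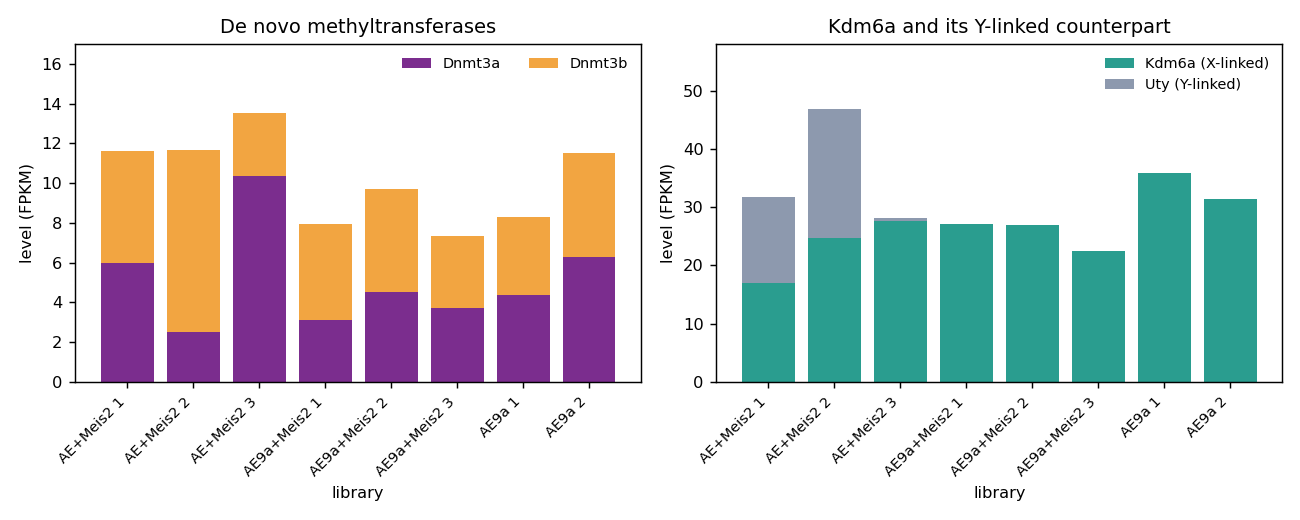
Left, summed level of Dnmt3a and Dnmt3b and right, of Kdm6a and its Y-linked counterpart Uty, in FPKM (vertical axes from 0), 1 stacked bar per library. The Dnmt3a part varies from 2.53 to 10.4 FPKM within AE+Meis2 while the sums there stay between 11.6 and 13.5 FPKM; Uty adds 14.8 and 22.1 FPKM in AE+Meis2 replicates 1 and 2 and at most 0.50 FPKM elsewhere.

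Of the TET enzymes, Tet2 and Tet3 were expressed and Tet1 nearly was not. Tet1 (chr10:62804570-62887469) measured 0.206, 0.0467 and 0.217 FPKM in the AE+Meis2 libraries, 0.0661, 0.233 and 0.468 in those of AE9a+Meis2 and 0.456 and 0.284 in those of AE9a. The 2 highest values belong to AE9a+Meis2 replicate 3 and AE9a replicate 1, the libraries with values in most silent genes. The same 2 libraries were the only ones above 0 for Asxl3 (0.19 and 0.31 FPKM) and for Cxxc4 (0.18 and 0.14 FPKM), a CXXC-domain partner of Tet2. The part of that background in the Tet1 values was not tested.

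Tet2 (chr3:133463677-133545136), whose loss is frequent in human myeloid leukemia, measured 11.6, 13.3 and 13.7 FPKM in the AE+Meis2 libraries, 25.4, 14.1 and 15.0 in those of AE9a+Meis2 and 20.5 and 13.2 in those of AE9a. All AE+Meis2 libraries lay below all AE9a+Meis2 libraries, by margins of under 1 FPKM at the nearest point, as 6.49% of all tested genes did. The log2 difference was -0.43 ± 0.28 (limma, adjusted p = 0.78), and the groups stayed apart under quantile scaling, median-ratio scaling and without small RNAs. A single library sets much of its size: without AE9a+Meis2 replicate 1 (25.4 FPKM) it was -0.17 ± 0.25. Against AE9a the AE+Meis2 libraries overlapped as deposited (-0.34 ± 0.31), though not under median-ratio scaling or without small RNAs. That difference was -0.04 without AE9a replicate 1 and -0.64 without AE9a replicate 2. AE9a+Meis2 and AE9a overlapped (0.09 ± 0.31). Tet3 (chr6:83362373-83457208), the paralog that acts beside Tet2 in blood cells, measured 12.9, 16.4 and 13.2 FPKM in the AE+Meis2 libraries, 20.02, 16.0 and 12.5 in those of AE9a+Meis2 and 15.3 and 17.7 in those of AE9a. Its log2 differences were -0.05 ± 0.25, -0.17 ± 0.22 and -0.21 ± 0.25. In the last of these, AE+Meis2 against AE9a, the libraries overlapped as deposited but lay lower without overlap under quantile scaling (-0.30), median-ratio scaling (-0.29) and without small RNAs (-0.58). The ratio of Tet2 to Tet3 stayed between 0.748 and 1.33, with groups overlapping in all 3 comparisons, so neither transcript predominated in bulk marrow. Protein was not measured.

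Kdm6a (chrX:18160862-18279936) was the regulator with the largest share of its variation between groups. It measured 17.1, 24.7 and 27.7 FPKM in the AE+Meis2 libraries, 27.1, 26.998 and 22.5 in those of AE9a+Meis2 and 35.9 and 31.4 in those of AE9a. Both AE9a libraries lay above the other 6. The log2 difference was -0.39 ± 0.24 between AE9a+Meis2 and AE9a (adjusted p = 1 by limma) and -0.54 ± 0.24 for AE+Meis2 against AE9a (limma, unadjusted p = 0.060, adjusted p = 0.85). Of all tested genes, 10.7% and 8.66% lay lower without overlap in these comparisons. The groups stayed apart in both under quantile scaling, median-ratio scaling and without small RNAs. Between AE+Meis2 and AE9a+Meis2 the difference was -0.16 ± 0.22. Without the library labelled AE+Meis2 replicate 1, which holds the lowest value, the difference from AE9a was -0.35 ± 0.21 and that from AE9a+Meis2 was 0.04 ± 0.19. With AE9a+Meis2 replicate 3 and AE9a replicate 1 left out, AE9a+Meis2 differed from AE9a by -0.21 ± 0.37.

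Kdm6a escapes X inactivation, so female cells can transcribe it from both X chromosomes, and male cells also carry its Y-linked counterpart Uty (chrY:1085187-1245773). The sex of the cells differed between libraries. Eif2s3y on the Y chromosome measured 158, 176 and 7.06 FPKM in AE+Meis2, and no library with AE9a exceeded 0.574. Xist, made by the inactive X, stayed at 1.93 and 5.79 FPKM in the first and second AE+Meis2 libraries, while 82.4 to 206 FPKM were found in the remaining 6. Uty stood at 14.8 and 22.1 FPKM in those 2 libraries and at 0.50 FPKM or less elsewhere. Kdm6a was lowest in the first of them, but in the second it was within the range of AE9a+Meis2. With Eif2s3y as a covariate the Kdm6a difference against AE9a was -0.04 ± 0.41 for AE+Meis2 and -0.42 ± 0.22 for AE9a+Meis2. In that fit the difference between AE+Meis2 and AE9a+Meis2 was 0.38 ± 0.42. Every AE+Meis2 library lay above every library with AE9a in Eif2s3y, so the fit rests largely on the differences within AE+Meis2. It cannot fully separate the sex of the cells from that group. Without the 2 libraries high in Eif2s3y, which leaves 1 AE+Meis2 library assumed to vary like the other groups, the AE+Meis2 difference was -0.27 ± 0.23 against AE9a and 0.12 ± 0.22 against AE9a+Meis2. The comparison of AE9a+Meis2 with AE9a holds no library high in Y-linked genes, but these groups differ in other marker lists. All 10 tested stress and dissociation genes lay higher in AE9a+Meis2 without overlap (median log2 2.53), where 23.8% of all tested genes lay apart in either direction. By limma 6 of the 10 had an unadjusted p under 0.05 (60%, against 3.06% of all tested genes) and 0 were called. The summed level of the 12 listed was 1369 to 2242 FPKM in AE9a+Meis2, 173 and 465 in AE9a and 167 to 3378 in AE+Meis2. Of 10 monocyte and macrophage markers, 2 lay higher without overlap, Ly6c2 and Cd68, and 5 lower, Mrc1, Vcam1 and the complement genes C1qa, C1qb and C1qc (70%, against 23.8% of all tested genes). Their sum was 644 to 2012 FPKM in AE9a+Meis2, 537 and 583 in AE9a and 491 to 776 in AE+Meis2, and none was at 0 in every library. Lower without overlap also lay 3 of 5 stroma and endothelium markers (60%), 2 of 4 megakaryocyte markers (50%) and 3 of 6 mast cell and basophil markers (50%). Erythroid (25%) and stem and progenitor markers (28.6%) were nearer the share of all tested genes. No tested neutrophil, primary granule, B cell or T and NK cell marker lay apart. The part of stress and of any of these cells in the Kdm6a and Dnmt3a values of that comparison was not tested. The sum of Kdm6a and Uty was 31.8, 46.8 and 28.2 FPKM in AE+Meis2, above the 27.1, 27.02 and 22.6 FPKM of AE9a+Meis2 (exact permutation p = 0.1, two-sided, the smallest possible, adjusted p = 0.56). In AE9a the sum was 35.9 and 31.5 FPKM, which AE+Meis2 overlapped (log2 difference 0.05, exact permutation p = 0.9). The sum in AE9a+Meis2 lay below that in AE9a without overlap (log2 -0.40, exact permutation p = 0.1, adjusted p = 0.56). Of other X-linked genes known to escape inactivation, Kdm5c differed by -0.11 ± 0.23 and Ddx3x by 0.40 ± 0.28 in AE+Meis2 against AE9a, with overlapping groups, while Eif2s3x (-0.29 ± 0.19) lay lower without overlap.

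Asxl1 (chr2:153345830-153404007) measured 27.1, 29.2 and 56.7 FPKM in the AE+Meis2 libraries, 34.0, 27.9 and 31.0 in those of AE9a+Meis2 and 32.4 and 34.0 in those of AE9a. A single library, AE+Meis2 replicate 3, was high, and the other 7 lay between 27.1 and 34.0 FPKM. The log2 difference was -0.10 ± 0.32, 0.20 ± 0.29 and 0.10 ± 0.32 in the order of comparisons above. Under quantile scaling AE9a+Meis2 lay below AE9a without overlap (-0.19). Without that library it was -0.13 ± 0.17 against AE9a+Meis2 and -0.23 ± 0.19 against AE9a. It is also the library with the highest neutrophil marker sum, and the part of those cells in the value was not tested. Asxl2 (chr12:3426857-3510811) was the tested regulator with the smallest spread, with 14.5, 19.96 and 14.8 FPKM in the AE+Meis2 libraries, 15.2, 15.1 and 13.01 in those of AE9a+Meis2 and 13.8 and 17.3 in those of AE9a. Its log2 differences were -0.10 ± 0.22, 0.16 ± 0.20 and 0.07 ± 0.22, and AE9a+Meis2 lay below AE9a without overlap under quantile scaling (-0.14) and without small RNAs (-0.21). The ratio of Asxl1 to Asxl2 was 3.83 in AE+Meis2 replicate 3 and between 1.46 and 2.38 elsewhere. Exons of Asxl1, Asxl2, Dnmt3a, Tet2 and Ezh2 overlap a noncoding gene on the other strand by 43 to 197 bases (GENCODE M21). No label says whether counting used strand, so reads in those stretches cannot be told apart. The 3 such genes in the table, Dnmt3aos, 2500004C02Rik (at Asxl1) and 1110002L01Rik (at Asxl2), were at most at 7.16 FPKM.

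The partners of these regulators were taken from lists chosen with earlier results of these data known, and none of their tested genes passed limma over all genes in any comparison. Of PRC2 genes other than Ezh2, 11 of 11 were tested. In AE+Meis2 against AE9a+Meis2, 9 were higher and 2 lower (median log2 0.37, beside 0.04 over all tested genes). By limma 0 were called and 1 had an unadjusted p under 0.05 (9.09%, against 7.15% of all tested genes). Higher without overlap lay 4 (36.4%), against 7% of all tested genes that lay higher and 13.5% that lay apart in either direction. Against AE9a, 9 of the 11 were also higher in AE+Meis2 (median 0.34), with 0 at an unadjusted p under 0.05. Without overlap lay 2 (18.2%, against 18.6% of all tested genes in either direction). AE9a+Meis2 against AE9a gave 6 higher and 5 lower (median 0.06), with 0 at an unadjusted p under 0.05 and 0 without overlap. Ezh1, the paralog that replaces Ezh2 in resting cells, measured 22.2, 35.3 and 24.4 FPKM in the AE+Meis2 libraries, 20.6, 18.8 and 18.3 in those of AE9a+Meis2 and 18.7 and 17.3 in those of AE9a. Every AE+Meis2 library was above every other one, with log2 differences of 0.46 ± 0.21 against AE9a+Meis2 (limma, adjusted p = 0.72) and 0.55 ± 0.23 against AE9a (adjusted p = 0.83). Without small RNAs the groups overlapped. The ratio of Ezh2 to Ezh1 was 2.04, 1.19 and 1.49 in AE+Meis2, 1.26, 2.41 and 1.65 in AE9a+Meis2 and 1.64 and 2.91 in AE9a, with groups overlapping. The PRC2 core subunit Suz12 differed by 0.37 ± 0.21, the histone chaperone Rbbp4 by 0.38 ± 0.22 and the recruitment factor Mtf2 by 0.68 ± 0.28 in AE+Meis2 against AE9a+Meis2, none of them called. A single library stood out: the 11 genes summed to 492 FPKM in AE+Meis2 replicate 2, but to 323 and 358 in replicates 1 and 3. The sums were 252 to 314 in AE9a+Meis2 and 280 and 346 in AE9a. Ezh1, Suz12 and Rbbp4 were highest in replicate 2, and Mtf2 in replicate 3. The nearest libraries, AE+Meis2 replicate 1 and AE9a+Meis2 replicate 2, had 41.8 and 40.5 FPKM of Suz12 and 57.98 and 57.3 of Rbbp4.

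Among 15 DNA methylation partners and readers, AE+Meis2 against AE9a+Meis2 gave 10 higher and 5 lower (median log2 0.21, beside 0.04 over all tested genes), with 0 called and 3 at an unadjusted p under 0.05 (20%, against 7.15%). The methyl-CpG binding protein Mbd2 measured 136, 286 and 159 FPKM in the AE+Meis2 libraries, 89.9, 111 and 109 in those of AE9a+Meis2 and 99.3 and 102 in those of AE9a. All 3 AE+Meis2 libraries were above the other 5 (log2 0.83 ± 0.28 and 0.87 ± 0.32, limma, adjusted p = 0.63 and 0.76), replicate 2 by the most. Higher without overlap than in AE9a+Meis2 lay 7% of all tested genes, and 18.6% lay apart from AE9a in either direction. Uhrf2, the paralog of Uhrf1, differed by 0.58 ± 0.22 from AE9a+Meis2. Dnmt3l, a cofactor of the de novo enzymes without activity of its own, measured 1.90, 1.78 and 1.11 FPKM in AE9a+Meis2. No other library exceeded 0.78 (log2 0.79 ± 0.34 over AE9a and -0.82 ± 0.30 for AE+Meis2 against AE9a+Meis2). Between AE9a+Meis2 and AE9a 23.8% of all tested genes lay apart, and 6.49% lay lower in AE+Meis2 against AE9a+Meis2. Cdca7, a partner of the remodeler Hells, differed by 1.05 ± 0.49 in the latter comparison with overlapping groups. In AE9a+Meis2 against AE9a, 3 of the 15 were higher and 12 lower (median -0.07), and in AE+Meis2 against AE9a, 9 and 6 (median 0.15), with 0 called in each.

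**Figure D5:**
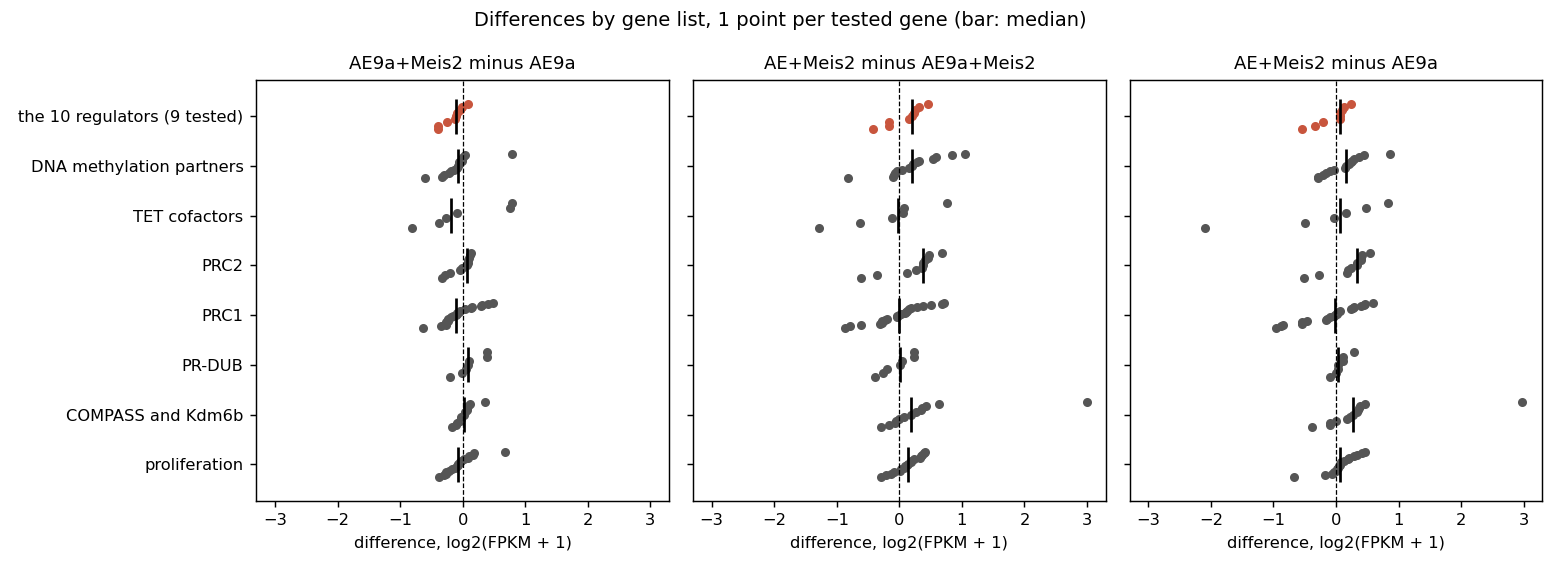
Difference on the log2(FPKM + 1) scale (horizontal axis) of each tested gene, 1 point per gene, for the 9 tested regulators and 7 lists of partner and proliferation genes in the 3 comparisons; bars mark list medians. Medians lie between -0.19 and 0.37; the outlying point near 3 in the COMPASS list is the Y-linked Uty, and the lowest, -2.10, is Wt1.

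TET activity needs alpha-ketoglutarate, which isocitrate dehydrogenases supply, and Wt1 can guide Tet2 to its targets. Of 6 tested genes of that list, 0 were called in any comparison. Wt1, a transcription factor often raised in leukemia, measured 7.73, 0 and 0.51 FPKM in the AE+Meis2 libraries, 3.75, 5.59 and 5.15 in those of AE9a+Meis2 and 10.7 and 7.77 in those of AE9a. The AE9a libraries were highest, and AE+Meis2 replicate 1 lay among the libraries with AE9a. The fitted difference of AE+Meis2 against AE9a was -2.10 ± 0.83 (limma, adjusted p = 0.81). Idh1 varied from 13.4 to 117 FPKM within AE+Meis2 (log2 0.79 ± 0.82 in AE9a+Meis2 against AE9a). Ogt, the glycosyltransferase that TET proteins bind, measured 111, 221 and 126 FPKM in AE+Meis2 and 80.2, 102 and 77.7 in the AE9a+Meis2 libraries, a log2 difference of 0.76 ± 0.28 (limma, adjusted p = 0.67). Cxxc5 differed by 0.84 ± 0.51 in AE+Meis2 against AE9a.

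PRC1 genes were spread around 0. Of 23 tested, 7 were higher and 16 lower in AE9a+Meis2 against AE9a (median log2 -0.10), 11 and 12 in AE+Meis2 against AE9a+Meis2 (median -0.0079) and 11 and 12 in AE+Meis2 against AE9a (median -0.01), with 0 called and 0 at an unadjusted p under 0.05 by limma in each. Kdm2b, which brings a variant PRC1 to CpG islands, measured 13.1, 3.59 and 13.5 FPKM in AE+Meis2. These lay below the 15.5 to 19.1 FPKM of all libraries with AE9a (log2 -0.87 ± 0.44 and -0.97 ± 0.49). Lower without overlap in the same 2 comparisons lay 6.49% and 8.66% of all tested genes. Cbx6 (-0.61 ± 0.34) and Cbx8 (-0.79 ± 0.42), which read the H3K27 mark, and the variant subunit Pcgf1 (0.15 ± 0.22) are given for AE+Meis2 against AE9a+Meis2. Of the 7 tested genes of the Bap1 complex, Bap1 included, Foxk1, Hcfc1, Mbd5 and Mbd6 had the smallest p-values, and their differences lay between -0.39 and 0.39 in all 3 comparisons, with overlapping groups. Asxl3 was not tested.

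Of 13 genes around Kdm6a, namely COMPASS subunits, the paralog Kdm6b and Uty, 8 were higher and 5 lower in AE+Meis2 against AE9a+Meis2 (median log2 0.19, 0 called). Kdm6b, the inducible demethylase of the same mark, measured 10.5, 6.85 and 26.3 FPKM in the AE+Meis2 libraries, 14.4, 14.2 and 18.6 in those of AE9a+Meis2 and 14.4 and 19.4 in those of AE9a. The ratio of Kdm6a to Kdm6b was 1.63, 3.61 and 1.05 in AE+Meis2 and between 1.21 and 2.49 elsewhere, so AE+Meis2 again held both extremes. The methyltransferase Kmt2a differed by 0.63 ± 0.31, Pagr1a by 0.43 ± 0.19 and the core subunit Wdr5 by 0.36 ± 0.17 in that comparison. Each of the 3 lay higher without overlap, as did Uty, and none of the 3 passed (limma, adjusted p = 0.72 to 0.73). That makes 4 of the 13 (30.8%), against 7% of all tested genes that lay higher and 13.5% that lay apart in either direction. The count includes the Y-linked Uty, which follows the sex of the cells. Kmt2a measured 10.6, 24.8 and 13.3 FPKM in AE+Meis2 and 8.95 to 10.03 in AE9a+Meis2, so its margin was small and replicate 2 stood out. In AE9a+Meis2 against AE9a 1 of 13 lay apart (7.69%, against 23.8%), and in AE+Meis2 against AE9a 2 of 13, Uty included (15.4%, against 18.6%). Of the 18 proliferation genes, 0 were called by limma and 0 had an unadjusted p under 0.05, with medians of -0.08, 0.13 and 0.06 in the 3 comparisons.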

How the data were processed

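Total RNA of leukemic marrow was made into libraries with the TruSeq kit, per the labels' protocols. The authors deposited 1 table of FPKM for 23997 genes in 8 libraries. TopHat, Cufflinks and Cuffdiff with the build mm10 are named in the submitters' processing notes; how they were set, and which annotation they used, is not stated there. Because FPKM carries no counts, the number of reads is not known, and counting intervals were not computed. The steps of low values give a rough relative depth, 8.22-fold from the shallowest library (AE9a replicate 1) to the deepest (AE9a+Meis2 replicate 2), with 2.97% to 9.03% of low genes at the commonest ratio. Sample titles gave each library its group and number.

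limma 3.58.1 in R 4.3.3 was fitted on log2(FPKM + 1) with 1 coefficient per group over all 8 libraries and a variance trend (2.28 prior and 5 residual degrees of freedom). Genes with at least 1 FPKM in at least 2 libraries, 12565 in all, were tested, and ± gives a standard error. Fold changes on this scale understate changes of low genes. Ratios and sums were compared by exact permutation of libraries. The fit was tested on simulated data. Python 3.11.15, pandas 2.3.3, NumPy 2.4.6, SciPy 1.17.1 and matplotlib 3.10.9 were used. Coordinates and promoter windows are RefSeq's on GRCm38.p6, of which mm10 is the UCSC name. The members and all lists were chosen with earlier results of these data known. Named partners are the up to 4 tested genes of a list with the smallest p in any comparison, beside Uhrf1, Kdm6b, Asxl3, Cxxc4, Itga2b and Mki67, named for the regulator they stand beside, some after their values were seen. All 6 megakaryocyte markers are also named. Epop and Adgre1 were matched by their older symbols. Other settings were another pseudocount, filter, scaling or variance trend, only the groups compared, a replicate block, and libraries left out. In the setting without small RNAs, the remaining values of each library were scaled to the same total.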

Additional observations from a re-analysis of the deposited data

How the results depend on the processing

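Under all 19 alternatives in each comparison, limma called 0 of the tested regulators, the replicate block included (lowest adjusted p 0.43). Over all genes, calls ranged from 2 to 9 (6 as reported) in AE9a+Meis2 against AE9a, 5 to 23 (5) in AE+Meis2 against AE9a+Meis2 and 0 to 10 (4) in AE+Meis2 against AE9a; the 23 and the 10 came without AE+Meis2 replicate 3. With the replicate block they were 2, 5 and 0. Replicate numbers share only a number: correlations of same-numbered libraries' deviations ran from -0.0252 to 0.133. Leaving out small RNAs and scaling the rest of each library to the same total moved the median of all genes by -0.13, -0.25 and -0.37. Summed FPKM as deposited ran from 581534 (AE9a+Meis2 replicate 2) to 1089180 (AE+Meis2 replicate 3), and removal and scaling were not tested apart. The same setting turned the share higher among calls from 50% to 25% and from 80% to 21.4% in the first 2 comparisons. Median-ratio scaling turned it from 75% to 100% in the third. No difference of a regulator that changed sign was a called one, and the cause was not tested.

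In AE+Meis2 against AE9a, the sign changed under quantile scaling for Dnmt1 (-0.12), Asxl1 (-0.11), Asxl2 (-0.0252) and Ezh2 (-0.15), under median-ratio scaling for Asxl2 (-0.0074) and Ezh2 (-0.0111), and without small RNAs for Dnmt1 (-0.25), Dnmt3a (-0.29), Dnmt3b (-0.0665), Asxl1 (-0.27), Asxl2 (-0.29) and Ezh2 (-0.30). With the replicate block it changed for Dnmt3a (-0.13) and Asxl1 (-0.0697). Without AE9a+Meis2 replicate 3 and AE9a replicate 1 it changed for Dnmt1 (-0.27), Dnmt3a (-0.16), Asxl2 (-0.0871) and Ezh2 (-0.28). In AE9a+Meis2 against AE9a it changed for Dnmt3b under quantile scaling (0.0134) and the replicate block (0.22), for Tet2 without small RNAs (-0.0251), and for Tet3 with the replicate block (0.0551) and without AE9a+Meis2 replicate 3 and AE9a replicate 1 (0.0175). In AE+Meis2 against AE9a+Meis2 it changed without small RNAs for Dnmt1 (-0.0146), Asxl1 (-0.0535) and Asxl2 (-0.0803), and for Kdm6a with Eif2s3y as a covariate (0.38) or without the 2 libraries high in it (0.12, chosen after seeing the data). No AE+Meis2 library was under 1 FPKM of Eif2s3y, so a fit of only libraries without Y-linked expression was not run.

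Leaving out 1 library at a time, the values that changed sign ranged as follows. In AE9a+Meis2 against AE9a they were -0.51 to 0.28 for Dnmt1, -0.21 to 0.38 for Tet2, -0.17 to 0.16 for Dnmt3b, -0.20 to 0.11 for Tet3, -0.25 to 0.0552 for Asxl2 and -0.60 to 0.10 for Ezh2. In AE+Meis2 against AE9a+Meis2 they were -0.30 to 0.0388 for Kdm6a, -0.0729 to 0.57 for Dnmt3b and -0.13 to 0.39 for Asxl1. In AE+Meis2 against AE9a they were -0.28 to 0.41 for Ezh2, -0.0778 to 0.56 for Dnmt3b, -0.0871 to 0.22 for Asxl2, -0.33 to 0.51 for Dnmt3a, -0.23 to 0.29 for Asxl1 and -0.27 to 0.52 for Dnmt1.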
